A study of Canis lupus familiaris with 12 samples.

Results

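RNASeq libraries of MDCKII cells, a dog kidney line with epithelial morphology, were examined for the mRNAs of adhesion molecules and catenins of the adherens junction (AJ). The 10 genes were listed by name: the cadherins CDH1, CDH6, and CDH16, the nectins NECTIN1, NECTIN2, and NECTIN3, the catenins CTNNB1, CTNNA1, and CTNND1, and the nectin-binding protein gene AFDN. Of these, 9 were found by symbol among the 13672 genes of the table, and CDH6 was not analysed here. Cells were WT or knockout (KO) for CGN (cingulin), for CGNL1 (paracingulin), or for both (double-KO). The KO lines had been generated by CRISPR/Cas9 gene editing. Each genotype was sequenced as 3 libraries, 12 in all, from cells that received no drug. Each KO genotype was 1 line, named 1G8 for CGN-KO, 22 for CGNL1-KO, and 21D3 for double-KO cells, so genotype and line cannot be told apart. Nothing in the labels or methods says what separates the replicates of a genotype, and p-values measure only the spread between these libraries.

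AJs hold epithelial cells together and couple their plasma membranes to actin filaments. Classical cadherins bind cadherins of the neighbouring cell through their extracellular domains. Their cytoplasmic tails bind p120-catenin (CTNND1) near the membrane and β-catenin (CTNNB1) more distally, and α-catenin (CTNNA1) links β-catenin to actin. Nectins are immunoglobulin-like adhesion molecules that bind each other across the cell contact, and afadin (AFDN) connects them to actin. In kidney epithelium E-cadherin (CDH1) is the classical cadherin of many tubule segments, and Ksp-cadherin (CDH16) is a kidney cadherin with a short tail. The AJ scaffold protein PLEKHA7 binds p120-catenin and recruits paracingulin to AJs. The comparisons ask how AJ mRNAs differ between cells with and without CGN or CGNL1.

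Levels are given in counts per 1000000 reads (CPM), as normalized by the authors, and each library held between 16837532 and 30086076 reads. Transcript lengths were not at hand, so levels are compared between genotypes and not between genes. CGN was at 199 to 233 CPM in WT and 198 to 213 in CGNL1-KO, against 47.0 to 56.5 in CGN-KO and 39.7 to 45.3 in double-KO cells. CGNL1 was at 7.74 to 12.3 CPM in WT, against 1.76 to 3.02 in CGNL1-KO and 1.11 to 1.76 in double-KO cells. In CGN-KO cells CGNL1 was at 5.04 to 6.92 CPM, between these groups and below all WT values. All 11 of 11 listed epithelial markers were found, with a summed level of 7469 to 8252 CPM. Of the markers of other cell types, 1 of 7 fibroblast genes was found (PDGFRA, 2.705 to 11.1 CPM) and 2 of 6 endothelial genes (0.690 to 2.98 CPM summed). Of 6 leukocyte genes, 3 were found, and their sum was 858 to 987 CPM in WT, while double-KO libraries held 1710 to 1752, CGN-KO libraries 1658 to 1774, and CGNL1-KO libraries 1303 to 1347. Nearly all of it was CD74, while the other markers found, CD68 and LAPTM5, stayed at or below 1.34 CPM, and PTPRC was not found. In bulk RNA, fewer cells with a transcript and less transcript per cell cannot be told apart.

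NECTIN3 and CTNNB1 were higher than in WT cells in all 3 KO lines, and the other 7 genes showed either no call or a call in 1 line. KO and WT libraries were compared with limma on log2(CPM + 1), in 1 fit of the 12650 genes above 1 CPM in at least 3 libraries. A gene was called at an adjusted p (Benjamini-Hochberg over all genes tested) below 0.05. All 9 genes passed the filter. In CGN-KO cells 3 of the 9 genes were called higher (CTNNB1, NECTIN3, and CDH16), where 11.2% of all genes tested were. In the same cells 1 was called lower (AFDN), against 7.87% of all genes. In CGNL1-KO cells 3 were called higher (CTNNB1, NECTIN3, and CDH1), against 6.81% of all genes. In double-KO cells 3 were called higher (CTNNB1, NECTIN3, and CTNND1), against 14.8% of all genes. No gene of the 9 was called lower in CGNL1-KO cells, where 3.49% of all genes were, and none in double-KO cells, where 11.5% were. Both counts were also 0 with edgeR and with DESeq2 on the recovered reads. At an unadjusted p below 0.05, limma gave 0 lower genes for CGNL1-KO cells and 1, NECTIN1, for double-KO cells. The share of all genes at this unadjusted threshold was not computed, here or below.

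No change reached 2-fold in limma, in any of the 3 comparisons with WT. Among all genes tested, 1.31% passed this stricter rule for CGN-KO, 0.617% for CGNL1-KO, and 1.41% for double-KO cells. At an unadjusted p below 0.05 the count of 2-fold changes among the 9 genes was 0 in each comparison. With edgeR and with DESeq2 it was 1 in CGN-KO cells (CDH16, whose fold is understated on the log2(CPM + 1) scale) and 0 in the other lines. The median log2 fold change of the 9 genes was 0.07 for CGN-KO, 0.08 for CGNL1-KO, and 0.02 for double-KO cells, beside medians over all genes of -0.0039, -0.0031, and -0.00036. The median size of the change, without its sign, was 0.16, 0.08, and 0.20 for the 9 genes and 0.12, 0.10, and 0.14 for all genes. The 3 comparisons share the WT libraries, so a deviation of these libraries enters all of them.

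**Figure D1:**
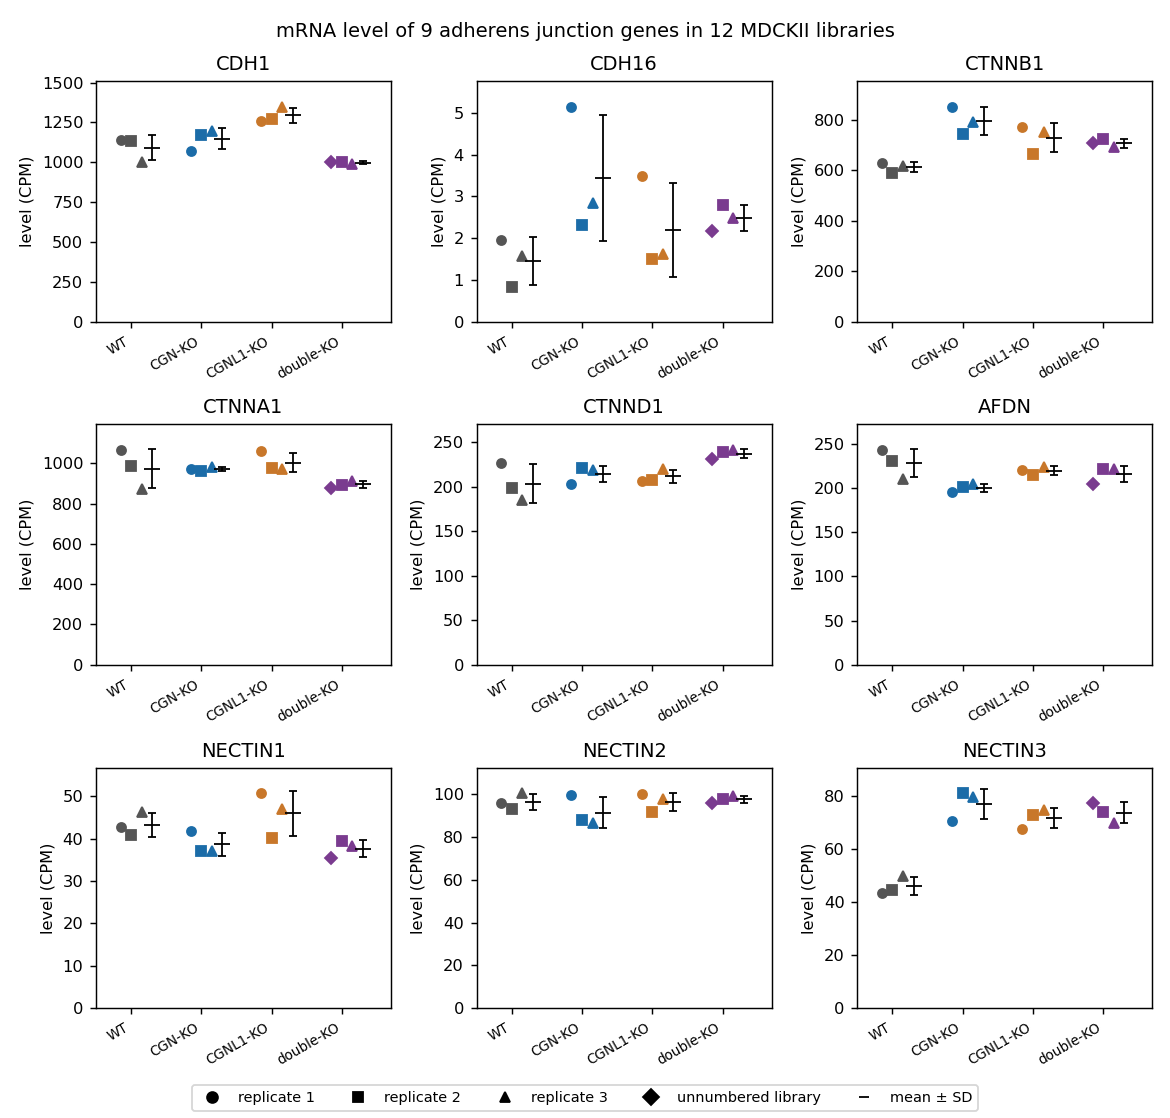
Level in CPM (y axes, from 0) of the 9 AJ genes in the 12 libraries, by genotype (x axes). Symbols are single libraries, with their replicate number as a shape, and black marks are the mean ± SD of the 3 libraries. For NECTIN3 all 9 KO libraries (67.6 to 81.1 CPM) sit above the 3 WT libraries (43.4 to 49.8), and for CTNNB1 they do so by a smaller margin.

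The nectins differed among themselves. NECTIN3, which in other tissues pairs with NECTIN1 across the contact, was at 43.4, 44.8, and 49.8 CPM in the WT libraries. It was at 70.5, 81.1, and 79.7 CPM in CGN-KO, at 67.6, 73.0, and 74.9 CPM in CGNL1-KO, and at 74.2, 69.7, and 77.5 CPM in double-KO libraries. The lowest KO library lay above the highest WT library in every line, and the 3 KO lines overlapped each other. The log2 fold change was 0.73 in CGN-KO (95% confidence interval 0.58 to 0.88, adjusted p = 1.89e-06), 0.63 in CGNL1-KO (0.48 to 0.78, adjusted p = 1.8e-05), and 0.67 in double-KO cells (0.52 to 0.82, adjusted p = 3.88e-06). On the CPM scale the mean was 1.68, 1.56, and 1.604 times the WT mean. These calls were made in all 21 alternative settings in each comparison.

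NECTIN1, the first described member of the family, was at 42.7, 40.8, and 46.4 CPM in WT and at 41.8, 37.1, and 37.1 CPM in CGN-KO libraries. It was at 50.7, 40.3, and 47.0 CPM in CGNL1-KO and at 39.4, 38.3, and 35.4 CPM in double-KO libraries. The values of CGN-KO and CGNL1-KO cells overlapped those of WT, and those of double-KO cells lay below all WT values. No difference from WT was called: the log2 fold change was -0.16 in CGN-KO (95% interval -0.34 to 0.02), 0.08 in CGNL1-KO (-0.10 to 0.26), and -0.20 in double-KO cells (-0.37 to -0.02, adjusted p = 0.0982). In a fit of WT and double-KO libraries alone the last difference was called (adjusted p = 0.0347).

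NECTIN2, a nectin found in most epithelia, had the narrowest relative range of means over genotypes. Its mean was 96.4 ± 3.75 CPM (SD, n = 3) in WT, 91.3 ± 7.27 for CGN-KO, 96.4 ± 4.35 for CGNL1-KO, and 97.7 ± 1.62 for double-KO cells. The libraries of the 4 genotypes overlapped. The 95% intervals of its log2 fold changes ran from -0.21 to 0.05 in CGN-KO, from -0.13 to 0.13 in CGNL1-KO, and from -0.11 to 0.15 in double-KO cells. Afadin mRNA (AFDN) was at 243, 231, and 210.5 CPM in WT and at 195, 201, and 204 CPM in CGN-KO libraries, which did not overlap. Its log2 fold change in CGN-KO cells was -0.18 (95% interval -0.30 to -0.06, adjusted p = 0.0309). This call was lost in 7 of 21 settings, among them leaving out WT replicate 1 (log2 fold change -0.14, adjusted p = 0.125), WT replicate 2 (adjusted p = 0.102), or any 1 CGN-KO library (adjusted p = 0.0557 to 0.0839). In CGNL1-KO (221, 214, and 224 CPM) and double-KO libraries (221, 221, and 205 CPM) AFDN overlapped WT.

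The catenins also moved separately. β-Catenin mRNA (CTNNB1), whose product serves both in cadherin complexes and in Wnt signalling, was at 628, 589, and 617 CPM in WT libraries. It was at 852, 744, and 791 CPM in CGN-KO, at 771, 664, and 753 CPM in CGNL1-KO, and at 724, 690.3, and 706 CPM in double-KO libraries. All 9 KO values lay above the WT values. Its log2 fold change was 0.38 in CGN-KO (95% interval 0.24 to 0.52, adjusted p = 0.000658), 0.25 in CGNL1-KO (0.11 to 0.39, adjusted p = 0.021), and 0.21 in double-KO cells (0.07 to 0.35, adjusted p = 0.0268).

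The call of CTNNB1 in CGN-KO cells was made in 21 of 21 settings. In CGNL1-KO cells it was made in 17, and was lost without WT replicate 2 (adjusted p = 0.0982), CGNL1-KO replicate 1 (0.0642), or CGNL1-KO replicate 3 (0.0932), and in a fit of these genotypes alone (0.063). In double-KO cells it was made in 16, and was lost without WT replicate 2 (adjusted p = 0.101), WT replicate 3 (0.0515), or any 1 double-KO library (0.0533 to 0.0955). The direction was the same in each of these fits.

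α-Catenin mRNA (CTNNA1) was at 1065, 985, and 870.4 CPM in WT, at 969, 960.4, and 984 CPM for CGN-KO, at 1058, 978, and 971 CPM for CGNL1-KO, and at 893, 914, and 879 CPM for double-KO libraries. The WT libraries spanned the range of the KO libraries. The log2 fold change was 0.0013 in CGN-KO (95% interval -0.14 to 0.15), 0.05 in CGNL1-KO (-0.10 to 0.19), and -0.12 in double-KO cells (-0.26 to 0.03), with no call. Without WT replicate 3, the lowest of the WT libraries, the difference in double-KO cells was called (log2 fold change -0.19, adjusted p = 0.035).

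p120-Catenin mRNA (CTNND1), whose product holds cadherins at the membrane, was at 227, 199, and 185 CPM in WT and at 238, 241, and 231 CPM in double-KO libraries. It was at 203, 220.3, and 219 CPM in CGN-KO and at 207, 207, and 220.2 CPM in CGNL1-KO libraries, both within the span of the WT values. All 3 double-KO values lay above the WT values. In double-KO cells its log2 fold change was 0.22 (95% interval 0.09 to 0.36, adjusted p = 0.0182). The call was lost without WT replicate 2 (adjusted p = 0.0638), WT replicate 3 (0.0935), double-KO replicate 2 (0.0584), or double-KO replicate 3 (0.0687).

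**Figure D2:**
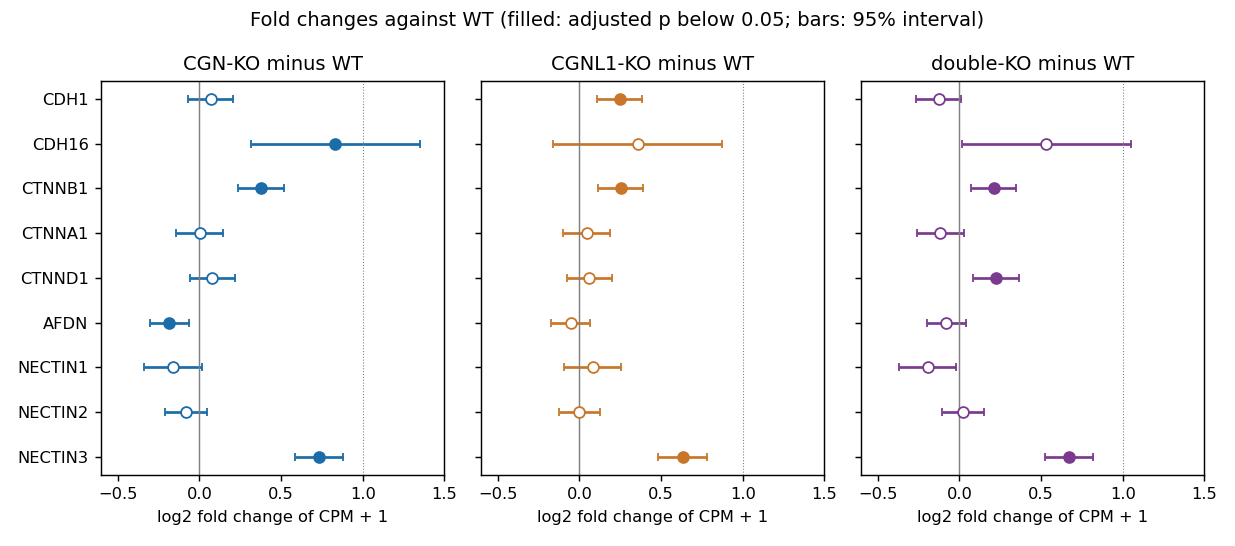
Log2 fold change on the log2(CPM + 1) scale (x axes) of the 9 AJ genes against WT in CGN-KO, CGNL1-KO, and double-KO cells. Points are limma estimates over 3 against 3 libraries, bars are 95% confidence intervals, filled points are called at an adjusted p below 0.05, and the dotted line marks a 2-fold rise. NECTIN3 stands at 0.73, 0.63, and 0.67, and the interval of CDH16, the gene with the fewest reads, is the widest.

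E-cadherin mRNA (CDH1) separated the KO lines from each other more than from WT. It was at 1142, 1132, and 1005 CPM in WT and at 1072, 1170.2, and 1198 CPM in CGN-KO libraries. It was at 1262, 1275, and 1348 CPM in CGNL1-KO libraries, above all others, and at 1003, 989, and 1004 CPM in double-KO libraries, below all others. The log2 fold change against WT was 0.25 in CGNL1-KO (95% interval 0.11 to 0.38, adjusted p = 0.0218), 0.07 in CGN-KO (-0.07 to 0.21, adjusted p = 0.496), and -0.13 in double-KO cells (-0.26 to 0.01, adjusted p = 0.162). The call in CGNL1-KO cells was lost without WT replicate 3 (adjusted p = 0.0986) or CGNL1-KO replicate 3 (0.102), and in a fit of these genotypes alone (0.0814). Without WT replicate 3 the difference in double-KO cells was called instead (log2 fold change -0.19, adjusted p = 0.0487).

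Ksp-cadherin mRNA (CDH16) was rare, with 15 to 156 reads per library. It was at 1.94, 0.828, and 1.58 CPM in WT, at 5.14, 2.32, and 2.83 CPM in CGN-KO, at 3.48, 1.49, and 1.61 CPM in CGNL1-KO, and at 2.79, 2.48, and 2.18 CPM in double-KO libraries. CGN-KO and double-KO values lay above all WT values, and CGNL1-KO values overlapped them. In WT, CGN-KO, and CGNL1-KO cells, replicate 1 was the highest of the 3 libraries. The log2 fold change in CGN-KO cells was 0.83 (95% interval 0.32 to 1.35, adjusted p = 0.0245), and the ratio of mean CPM was 2.37. The call was lost without WT replicate 2 (adjusted p = 0.128) or CGN-KO replicate 1 (log2 fold change 0.57, adjusted p = 0.106). In double-KO cells the log2 fold change was 0.53 (95% interval 0.01 to 1.05, adjusted p = 0.123), which was called in a fit of WT and double-KO libraries alone (adjusted p = 0.0166).

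CDH16 varied from library to library together with PDGFRA, the only fibroblast marker found and also a growth factor receptor of other mesenchymal cells. Over the 12 libraries the 3 tested genes most like CDH16 on the log2(CPM + 1) scale were PDGFRA (Pearson r = 0.98), CLDN2, a claudin that forms cation pores (0.963), and PTOV1 (0.961). PDGFRA was at 2.705 to 5.48 CPM in WT and at 5.88 to 11.1 CPM in CGN-KO cells (log2 fold change 0.81, adjusted p = 0.0489). CLDN2 was at 5.52 to 13.3 CPM in WT and at 15.6 to 43.1 CPM in CGN-KO cells (log2 fold change 1.35, adjusted p = 0.00897). Both genes were picked for their likeness to CDH16 in these same libraries. Their p-values are thus not independent of the call of CDH16 in CGN-KO cells. COL1A1, COL1A2, COL3A1, PDGFRB, DCN, and LUM, the other fibroblast markers listed, were not found in the table. For CDH1 the 3 most similar genes were ANXA2, a membrane-binding annexin (r = 0.969), LAMA3, a laminin chain (0.936), and RPS6KA1, a kinase (0.914). These correlations describe 12 libraries that share 4 genotypes and their numbering, and were not tested.

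The KO lines were also compared directly with each other for the 9 genes. Between double-KO and CGNL1-KO cells 2 were called, against 14.4% of all genes. CDH1 was lower in double-KO cells by 0.37 on the log2 scale (log2 fold change -0.37, 95% interval -0.51 to -0.24, adjusted p = 0.00108), and was called in 21 of 21 settings. NECTIN1 was lower as well (log2 fold change -0.28, 95% interval -0.45 to -0.10, adjusted p = 0.0358), and its values did not overlap between these lines. That call was lost in 9 of 21 settings, among them leaving out CGNL1-KO replicate 1 (log2 fold change -0.20, adjusted p = 0.123) or 3 (0.125), or any 1 double-KO library (0.058 to 0.144).

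Between double-KO and CGN-KO cells 0 of the 9 were called with limma, against 8.84% of all genes. At an unadjusted p below 0.05 there were 3 (CDH1 and CTNNB1 lower and CTNND1 higher), edgeR called 0, and DESeq2 called 1, CDH1. Between CGN-KO and CGNL1-KO cells limma, edgeR, and DESeq2 each called 0, against 5.19% of all genes with limma. At an unadjusted p below 0.05 there were 3 (CDH1, AFDN, and NECTIN1, each lower in CGN-KO). The share of all genes at this unadjusted threshold was not computed, so neither count of 3 is a result about the members. The labels do not say that replicate numbers pair libraries. Libraries of these lines with the same number deviated together (r = 0.632, 0.475, and 0.179), so an alternative to the main fit took the numbers as pairs. With the replicate number as a block 2 genes were called, CDH16 higher in CGN-KO (log2 fold change 0.48, adjusted p = 0.0382) and NECTIN1 lower (-0.24, adjusted p = 0.0324). Without the block their adjusted p was 0.337 and 0.127. The share of all genes called with the block was not computed, so this count of 2 is no result about the members. An F test over the 4 genotypes called 4 of the 9 genes, CDH1 (adjusted p = 0.00244), CTNNB1 (0.0026), NECTIN1 (0.0464), and NECTIN3 (2.52e-06), against 29.9% of all genes.

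The order of the genotypes differed from gene to gene. For NECTIN3 and CTNNB1 the order by mean was CGN-KO and then the other KO lines, with WT last. The only neighbours in these orders that differed beyond their spread were WT and the KO line next to it. For CDH1 the order was CGNL1-KO, CGN-KO, WT, and double-KO, and no neighbours differed by the test (adjusted p = 0.151, 0.496, and 0.162). For CTNND1 it was double-KO, CGN-KO, CGNL1-KO, and WT, for AFDN it was WT, CGNL1-KO, double-KO, and CGN-KO, and in neither did neighbours differ by the test. The neighbours of the other 4 genes did not differ by the test either.

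Because partners of 1 complex are measured in the same library, their ratios do not depend on library scaling. In total 8 ratios were compared in 3 lines, 24 tests, by a two-sided exact permutation test on log2 ratios, whose smallest possible p with 3 against 3 libraries is 0.1, so no ratio could pass the threshold. The smallest adjusted p was 0.171. The ratio of CTNNB1 to CDH1 was 0.550, 0.521, and 0.614 in WT libraries. It was 0.794, 0.636, and 0.660 in CGN-KO and 0.721, 0.698, and 0.704 in double-KO libraries, above WT in both, and 0.611, 0.521, and 0.558 in CGNL1-KO libraries, where it overlapped WT. In CGNL1-KO cells the mRNAs of both partners were thus higher at a mean ratio of 0.564 ± 0.0452 (SD, n = 3), beside 0.562 ± 0.0478 in WT.

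The ratio of CTNNA1 to CTNNB1 was 1.59 ± 0.158 (SD, n = 3) in WT, 1.22 ± 0.0782 for CGN-KO, 1.38 ± 0.0913 for CGNL1-KO, and 1.27 ± 0.0489 for double-KO cells, overlapping WT only in CGNL1-KO cells. The ratio of CTNND1 to CDH1 was 0.199, 0.175, and 0.184 in WT, 0.164, 0.163, and 0.163 in CGNL1-KO, and 0.238, 0.244, and 0.230 in double-KO libraries. It lay below WT in CGNL1-KO and above WT in double-KO cells, whereas CGN-KO cells overlapped WT. The ratio of NECTIN3 to NECTIN1 was 1.06 ± 0.0409 (SD, n = 3) in WT, 2.01 ± 0.277 for CGN-KO, 1.58 ± 0.241 for CGNL1-KO, and 1.96 ± 0.196 for double-KO cells, and lay above WT in each line. AFDN to NECTIN2 overlapped WT in each line. In all, 6 of the 8 ratios did not overlap WT in CGN-KO cells, 2 in CGNL1-KO cells, and 6 in double-KO cells. Ratios that share a gene move together, and the share among other gene pairs was not computed. These counts are thus no result about AJ partners.

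**Figure D3:**
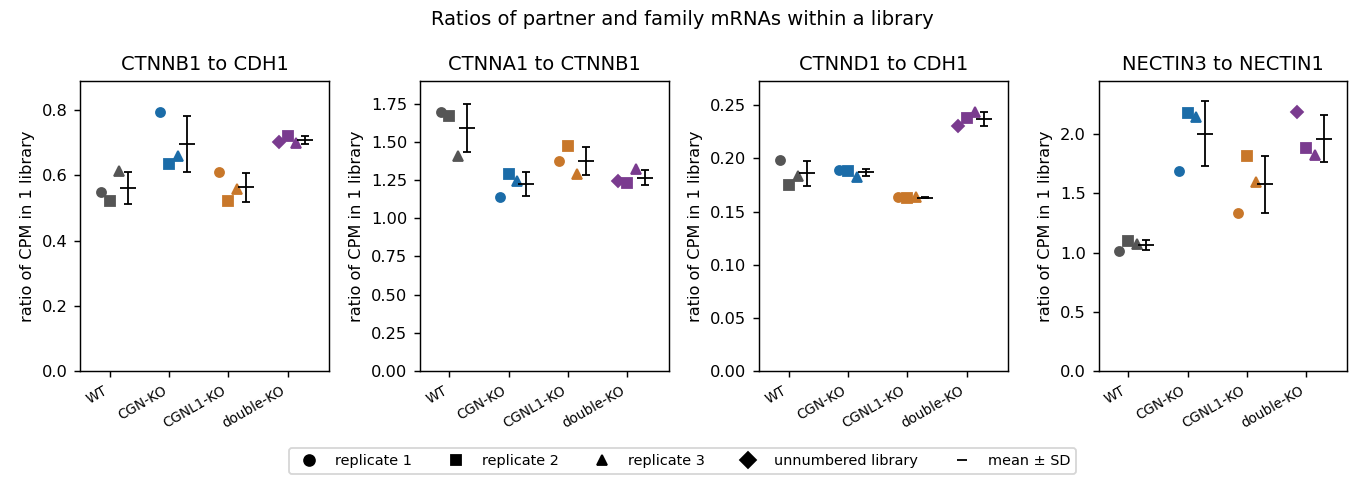
Ratio of the CPM of 2 AJ mRNAs in the same library (y axes, from 0) by genotype (x axes). Symbols are single libraries and black marks the mean ± SD of 3 libraries. NECTIN3 to NECTIN1 lies above WT in all 9 KO libraries, CTNNB1 to CDH1 in the CGN-KO and double-KO libraries, and CTNND1 to CDH1 is highest in double-KO and lowest in CGNL1-KO libraries.

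In the double-KO line the genes of whole chromosomes stood above WT, and 3 of the 9 AJ genes lie on such chromosomes. Chromosomes were taken from RefSeq by symbol and are called here after a gene on them. On the CTNND1 chromosome the median log2 fold change of the 397 other genes tested was 0.30 in double-KO cells, with 90.4% of them above 0, beside a median of 0.09 in CGN-KO and of 0.05 in CGNL1-KO cells. CTNND1 itself, at 0.22, was below that median, and its 24 nearest neighbours had a median of 0.28. The chromosome's median gene stood 0.29, 0.33, and 0.30 above the WT mean in the 3 double-KO libraries, where CTNND1 stood 0.23, 0.25, and 0.19 above it. After each chromosome was centred on its median, CTNND1 was no longer higher in double-KO cells (log2 fold change -0.08, adjusted p = 0.425).

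AFDN and NECTIN2 lie on 1 chromosome, with 342 tested genes between them, and MYH14 and ACTN4 lie there too. The median log2 fold change of the 687 other genes of this chromosome was 0.20 in double-KO cells, with 78.3% of them above 0 beside AFDN, and about 0 in the other lines (0.00042 and 0.0053). AFDN, at -0.08, and NECTIN2, at 0.02, lay below this median. They still stood above 14.3% and 24.7% of the other genes of the chromosome. In the double-KO libraries the median gene stood 0.19, 0.22, and 0.19 above the WT mean. AFDN stood at -0.04, -0.04, and -0.15 and NECTIN2 at 0.02, 0.04, and -0.004. Relative to the chromosome both were lower in double-KO cells, AFDN by a centred log2 fold change of -0.28 (adjusted p = 0.00205) and NECTIN2 by -0.18 (adjusted p = 0.0392). The call of AFDN in CGN-KO cells was also made after centring (-0.19, adjusted p = 0.0269). These calls relative to the chromosome are not calls of a lower level, since without centring neither gene was called in double-KO cells (adjusted p = 0.323 for AFDN and 0.838 for NECTIN2).

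The chromosomes of the other 6 genes had medians between -0.06 and 0.0021 over the 3 lines. On that of NECTIN3 the median of the 123 other genes was -0.02, -0.0062, and -0.0046, and NECTIN3 stood above 95.1%, 97.6%, and 93.5% of them. CTNNB1 rose against the direction of its chromosome, whose 196 other genes had medians of -0.05, -0.02, and -0.06, and centring gave it log2 fold changes of 0.43, 0.28, and 0.27 (adjusted p = 0.000116, 0.00706, and 0.00458). CDH1, CDH16, and NECTIN1 share a chromosome, with 49 tested genes between CDH1 and CDH16. Its medians were between -0.0047 and 0.0021.

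**Figure D4:**
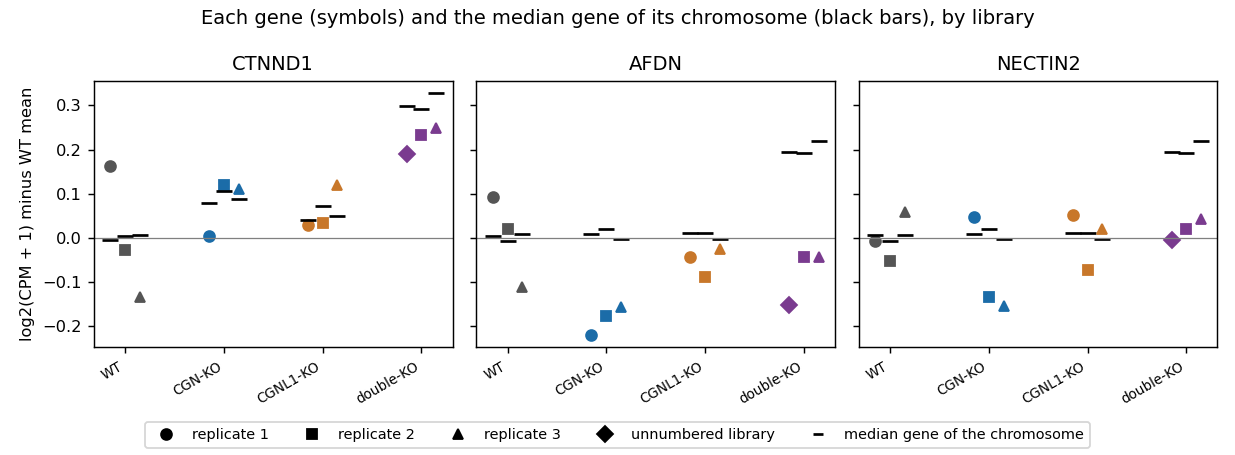
Log2(CPM + 1) minus the WT mean (y axis) of CTNND1, AFDN, and NECTIN2 in each library (symbols, by genotype) and of the median gene of the chromosome in the same library (black bars). In the double-KO libraries the CTNND1 chromosome stands at 0.29 to 0.33 with CTNND1 at 0.19 to 0.25, whereas AFDN and NECTIN2, at -0.15 to 0.04, lie below their chromosome, at 0.19 to 0.22.

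Other genes of the AJ pathway were taken from 5 lists, of which 42 genes were tested. Of these 5 were called higher and 4 lower in CGN-KO cells, beside 11.2% and 7.87% of all genes tested. In CGNL1-KO cells 2 were called higher and 2 lower, beside 6.81% and 3.49%, and in double-KO cells 7 and 6, beside 14.8% and 11.5%. The shares of all genes called are the same for the single lists that follow. Among the 4 other cadherins tested, CDH3 (P-cadherin), which lies next to CDH1 with no tested gene between them, was called in 2 lines. It was at 95.4, 97.9, and 80.5 CPM in WT, at 65.7, 63.2, and 66.3 CPM in CGN-KO, at 106, 99.0, and 99.9 CPM in CGNL1-KO, and at 53.9, 59.4, and 56.3 CPM in double-KO libraries. CGN-KO and double-KO values lay below, and CGNL1-KO values above, all WT values. Its log2 fold change was -0.48 in CGN-KO (adjusted p = 0.000122), 0.16 in CGNL1-KO (adjusted p = 0.176), and -0.68 in double-KO cells (adjusted p = 2.83e-06), where CDH1 had 0.07, 0.25, and -0.13. CDH3 was lower in double-KO than in CGNL1-KO cells (log2 fold change -0.84, adjusted p = 8.64e-07), as CDH1 was. CDH24, a type II cadherin, rose in double-KO cells (log2 fold change 0.34, adjusted p = 0.0036).

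Of 5 other catenins and armadillo proteins, ARVCF, a relative of p120-catenin, rose in CGN-KO cells (log2 fold change 0.32, adjusted p = 0.00999). PKP4, another relative, was higher in double-KO (0.20, adjusted p = 0.0113) and lower in CGNL1-KO cells (-0.18, adjusted p = 0.0349). The former call was lost without WT replicate 3 or double-KO replicate 2 and the latter in 8 of 21 settings. No other gene of this list was called in these comparisons, JUP (γ-catenin) included, whose mean was 476 ± 33.98 CPM (SD, n = 3) in WT and 487 to 514 CPM in the KO lines. Of 3 other nectins and nectin-like molecules, CADM1 rose in CGN-KO (log2 fold change 0.56, adjusted p = 0.000241) and in double-KO cells (0.27, adjusted p = 0.03). The second call was lost without WT replicate 2, WT replicate 3, double-KO replicate 2, or the unnumbered double-KO library.

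Of 15 plaque proteins and actin linkers, 2 were called lower for CGN-KO, 1 for CGNL1-KO, and 3 for double-KO cells, and 1 was called higher, in double-KO cells. PLEKHA7 had the largest fall in each line. It was at 5.54 to 6.68 CPM in WT libraries, at 3.17 to 3.604 in CGN-KO, at 2.32 to 3.02 in CGNL1-KO, and at 2.66 to 3.53 in double-KO libraries, from 40 to 121 reads per library. No KO library overlapped WT. The log2 fold change was -0.67 (adjusted p = 0.000915), -0.94 (8.22e-05), and -0.79 (0.000166), called in 21 of 21 settings in each line. At these low levels the log2(CPM + 1) scale understates the folds. In CGNL1-KO cells the mean was 2.62 CPM, beside 5.94 in WT, and the log2 fold change reached -1.17 among the settings. The call of higher ACTN4 in double-KO cells (log2 fold change 0.24, adjusted p = 0.00342), an α-actinin gene on the chromosome of AFDN, was lost after chromosome centring (0.04, adjusted p = 0.64).

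Of 15 genes of cadherin turnover and Rap1 signalling, 3 were higher and 1 lower for CGN-KO, 2 and 0 for CGNL1-KO, and 3 and 2 for double-KO cells. The 0 held with edgeR and DESeq2, and 1 gene, RAP1B, was lower in CGNL1-KO cells at an unadjusted p below 0.05. RAP1B, a small GTPase that promotes cadherin adhesion, had the largest fall in CGN-KO (log2 fold change -0.37, adjusted p = 0.00027) and double-KO cells (-0.35, adjusted p = 0.000332). PTPRF, a receptor phosphatase found at cell contacts, had the largest rise in CGN-KO cells (0.39, adjusted p = 0.00144). PTPN1, a phosphatase that acts on β-catenin, had the largest rise in CGNL1-KO (0.39, adjusted p = 0.00184) and double-KO cells (0.37, adjusted p = 0.00112). It was also called higher in CGN-KO cells (0.37, adjusted p = 0.00145). The calls of PTPN1 were lost in all 3 lines after its chromosome was centred. The log2 fold change was then 0.18 (adjusted p = 0.121) in CGN-KO, 0.19 (adjusted p = 0.166) in CGNL1-KO, and 0.21 (adjusted p = 0.0616) in double-KO cells.

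**Figure D5:**
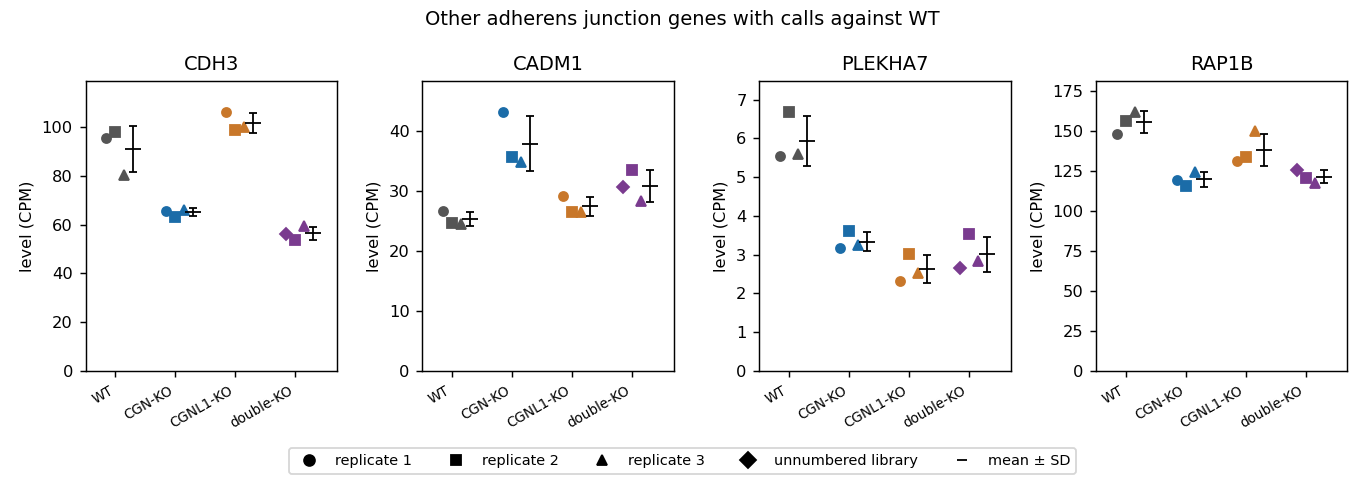
Level in CPM (y axes, from 0) of CDH3, CADM1, PLEKHA7, and RAP1B by genotype (x axes) in the 12 libraries. Symbols are single libraries and black marks the mean ± SD of 3 libraries. PLEKHA7 is at 5.54 to 6.68 CPM in WT and at 2.32 to 3.604 CPM in the KO libraries, and CDH3 is low in CGN-KO and double-KO libraries only.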

How the data were processed

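MDCKII mRNA was sequenced as stranded libraries with single reads of 100 nt. Per the labels and the methods, the authors used STAR 2.7.0f for alignment to canFam3, HTSeq 0.9.1 for counting, and edgeR for normalization and filtering. The annotation release and strand setting are not given in the sources used here. The deposited values are a signal in CPM, scaled by edgeR's TMM factors. All (100%) were whole multiples of 1 read within 0.01 reads, so reads were recovered. A double-KO column carries no replicate number (called unnumbered).

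Genotypes were compared with limma 3.58.1 (R 4.3.3; lmFit, eBayes with trend, no replicate block). Adjusted p-values come from limma unless edgeR 4.0.16 (quasi-likelihood) or DESeq2 1.42.0, run on recovered reads, is named. Replicates differed by more than sampling noise (chi-square per degree of freedom 2.53 to 24.0). CGN-KO and CGNL1-KO libraries of the same number deviated together (r = 0.632, 0.475, and 0.179). Numbers were thus taken as pairs in an alternative fit, the replicate block, and not in the main fit. That block covered the numbered WT and double-KO libraries too. Of the genes tested, 92.9% were placed on chromosomes by RefSeq symbols (assembly UU_Cfam_GSD_1.0). As this differs from the authors' build, no coordinates are given. Alternatives were pseudocounts of 0.5 and 0.1 in place of 1, no filter, scaling by library totals, edgeR, DESeq2, fits of single genotype pairs, a replicate block, chromosome centring, and leaving out each library. Scripts were tested on simulated data. Plots used matplotlib 3.10.9.

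The members and lists were chosen with earlier results of these data known. Named genes are the members, CGN and CGNL1, the called gene of each list with the largest rise and fall per comparison with WT, and the 3 genes most correlated with CDH1 and CDH16. JUP, MYH14, CD74, CD68, and LAPTM5 were named after their values were seen.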

Additional observations from a re-analysis of the deposited data

Results flagged for a closer look

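The effects of the KO lines on 2 genes differed by a test of the difference itself. CDH1 was lower in double-KO than in CGNL1-KO cells, with a log2 fold change of -0.37 (adjusted p = 0.00108). NECTIN1 was lower in double-KO than in CGNL1-KO cells, with a log2 fold change of -0.28 (adjusted p = 0.0358). The call of CDH1 was made in 21 of 21 alternative settings, and that of NECTIN1 in only 12. Both lines were compared in the limma fit of the 4 genotypes.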

How the results depend on the processing

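Over 21 alternatives, NECTIN3 in all 3 KO lines, CTNNB1 in CGN-KO cells, and CDH1 between double-KO and CGNL1-KO cells were called every time. Leaving out 1 library at a time gave 2 to 4 members called in CGN-KO against WT (4 with all libraries), 1 to 3 in CGNL1-KO (3), and 1 to 3 in double-KO cells (3). Between KO lines it gave 0 to 1 for CGN-KO and CGNL1-KO (0), 0 to 1 for double-KO and CGN-KO (0), and 1 to 3 for double-KO and CGNL1-KO (2). A fit of the genotypes compared alone called 1 in CGNL1-KO, 5 in double-KO cells, and 1 between double-KO and CGNL1-KO cells. Between the last lines, scaling by library totals called 1, and between double-KO and CGN-KO cells DESeq2 called 1. The cause of these changes was not tested. Shares of all genes called were not computed for the alternatives, the replicate block included, so these counts only show how calls depend on the setting.

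With the replicate block, 2 members were called between CGN-KO and CGNL1-KO cells, whose numbers were taken as pairs without a label that says so. In the 11 numbered libraries the block called 1 between double-KO and CGNL1-KO cells. Against WT it called 4, 3, and 4 members for CGN-KO, CGNL1-KO, and double-KO cells. The block applied the numbers to WT and double-KO libraries as well, whereas the main fit used no block. WT libraries 1 and 2 also deviated with those of the single KO lines. The values were r = 0.373, 0.318, and -0.0822 for WT with CGN-KO, and 0.329, 0.371, and 0.011 for WT with CGNL1-KO. Double-KO libraries 2 and 3 had r = -0.233 and -0.123 with CGN-KO, -0.235 and -0.124 with CGNL1-KO, and -0.152 and 0.0859 with WT. Double-KO libraries thus mostly did not deviate with those of the same number, although the block treated them so.

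Chromosome centring, by its own construction, turned the direction of 10 log2 fold changes of members. Those called in either fit were CTNND1 (-0.079) and NECTIN2 (-0.18) in double-KO against WT. Among the uncalled ones were CTNND1 (-0.067), AFDN (-0.089), and NECTIN2 (-0.093) between double-KO and CGN-KO cells, and CTNND1 (-0.087) and NECTIN2 (-0.17) between double-KO and CGNL1-KO cells. It also turned ACTN4 (-0.029) between the latter lines. The other settings changed the sign of 26 uncalled member values. Of 1134 alternative log2 fold changes of members, 1083 stayed on their side of the threshold. Depth limits CDH16 (15 to 156 reads per library) most.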
